A study of Mus musculus with 60 samples.

Results

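The 49 genes described here encode the enzymes that write, remove and read histone acetylation and histone methylation, together with the Tet enzymes. The rule that chose them uses symbols and no measured value, but it was set with earlier results of these data known. They are 49 of the 21883 protein-coding genes in the RefSeq table for GRCm38.p6. By class they are 18 deacetylases, 9 acetyltransferases, 8 polycomb proteins, 5 demethylases, 4 methyltransferases, 3 Tet enzymes and 2 bromodomain readers. Chromatin was taken from the lumbar dorsal root ganglia of the sciatic nerve of C57BL/6 mice, aged 6 to 8 weeks, 24 hours after surgery. The 4 groups were a cut sciatic nerve (SNA), sham surgery on that nerve (Sham), a cut through the spinal dorsal columns (DCA) and laminectomy, which opens the vertebral roof over the cord (Lam). SNA is set against Sham and DCA against Lam, and Lam against Sham gives the difference between the surgeries that cut no axon. The 60 samples are 24 chromatin immunoprecipitates of H3K9ac, H3K27ac or H3K27me3 (2 per mark and surgery, each pooling 10 mice), their 24 inputs, and 12 ATAC-seq samples (3 per surgery, 1 mouse each).

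The authors deposited 1 peak list per assay and surgery, made from the pooled replicates. A list therefore has no replicate error, no difference below carries a test, and every count of genes is read against the same count over all genes. The lists hold peaks and no read totals, so the sequencing depth is unknown. Whole ganglia were used, which hold sensory neurons, satellite glia, Schwann cells and immune cells, and fewer cells of a type and less of a mark per cell cannot be told apart. A gene's window is its body with 10 kb on either side, and its start region is 1 kb on either side of the annotated start. For 8 of the 49 genes the promoter table holds no start, and either end of the gene was taken instead. In 38 of the 49 windows lies part of another gene, so a peak counted for a gene need not belong to it, and the windows of Cbx2 and Cbx8 overlap. Where 4 values follow each other, they are those of Sham, SNA, Lam and DCA in this order.

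Acetylation of histone H3 at lysines 9 and 27 loosens nucleosomes at active promoters and enhancers. Acetyltransferases such as Crebbp and Ep300 write it, histone deacetylases and sirtuins remove it, and bromodomain proteins bind it. Methylation has its own writers and erasers: the Kmt2 enzymes methylate lysine 4 at active genes, the polycomb enzymes Ezh1 and Ezh2 methylate lysine 27 to give the repressive mark H3K27me3, and Kdm5 and Kdm6 enzymes remove these marks. Tet enzymes oxidise methylated cytosine in DNA. In injured sensory neurons, Kat2b (also called PCAF), Ep300, Crebbp, Hdac5, Hdac3 and Tet3 are among the enzymes that have been studied for a role in axon regeneration.

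Most promoters of these genes are rich in CpG, the dinucleotide that unmethylated promoters of widely active genes keep. In the RefSeq promoter table for GRCm38.p6, 41 of the 49 genes had 54 promoters of 300 bases, 250 upstream and 50 downstream of the start. Their median GC content was 62.3% and they held a median of 22 CpG, against 56.3% and 13 over 21262 promoters. An observed to expected CpG ratio of at least 0.6 was found in 79.6% of them, against 47.7% of all promoters. The 250 bases upstream of the start are shown for 4 genes that span the range of start peaks found below, from a promoter acetylated and open in every list (Ep300, Hdac5) to promoters nearly without peaks (Hdac8, Hdac9). CpG dinucleotides are in capitals.
Ep300: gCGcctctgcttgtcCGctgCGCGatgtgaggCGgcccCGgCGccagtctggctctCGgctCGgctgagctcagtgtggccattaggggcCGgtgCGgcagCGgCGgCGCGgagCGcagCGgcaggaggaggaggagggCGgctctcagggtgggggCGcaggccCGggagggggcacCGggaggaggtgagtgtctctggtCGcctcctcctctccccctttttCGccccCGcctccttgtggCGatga
Hdac5: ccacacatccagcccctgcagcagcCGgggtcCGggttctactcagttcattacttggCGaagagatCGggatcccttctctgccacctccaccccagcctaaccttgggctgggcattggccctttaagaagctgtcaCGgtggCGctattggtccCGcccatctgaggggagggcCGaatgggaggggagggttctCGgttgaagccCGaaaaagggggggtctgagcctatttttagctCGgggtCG
Hdac8: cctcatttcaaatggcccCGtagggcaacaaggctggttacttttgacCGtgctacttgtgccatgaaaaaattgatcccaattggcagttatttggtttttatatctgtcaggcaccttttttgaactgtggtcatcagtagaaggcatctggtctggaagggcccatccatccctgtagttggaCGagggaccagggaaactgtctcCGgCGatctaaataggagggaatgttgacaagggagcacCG
Hdac9, upstream start: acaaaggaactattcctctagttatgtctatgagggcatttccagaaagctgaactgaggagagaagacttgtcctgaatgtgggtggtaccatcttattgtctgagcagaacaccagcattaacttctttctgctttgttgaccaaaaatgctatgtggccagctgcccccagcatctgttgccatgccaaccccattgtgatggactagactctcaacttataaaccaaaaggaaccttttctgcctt
Hdac9, downstream start: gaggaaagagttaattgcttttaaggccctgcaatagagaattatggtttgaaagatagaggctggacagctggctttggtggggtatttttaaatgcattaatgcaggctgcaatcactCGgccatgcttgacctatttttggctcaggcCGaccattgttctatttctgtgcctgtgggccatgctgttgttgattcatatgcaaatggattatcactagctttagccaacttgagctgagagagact
Counting these 250 bases, the Ep300 promoter at chr15:81585964-81586213 (plus strand) held 25 CpG and 73.2% GC, and the Hdac5 promoter at chr11:102230173-102230422 (minus strand) held 12 and 60.8%. The X-linked Hdac8 promoter at chrX:102505159-102505408 (minus strand) held 6 CpG and 48.4% GC. The 2 Hdac9 promoters, at chr12:34917096-34917345 and chr12:34528890-34529139 (minus strand), held 0 and 2 CpG with 44.4% and 43.6% GC.

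Motifs were searched in the 300 bases on both strands. The cAMP response element TGACGTCA was in 1 of the 54 promoters, that of Cbx8, against 2.23% of all promoters, and its shorter form TGACG, which the full element contains, was in 37.0% against 23.6%. The AP-1 motif TGANTCA was in 9.26% of the members' promoters against 6.99%, and the 5 genes were Hdac7, Hdac9, Kat2b, Kat8 and Kdm5c. The GC box GGGCGG was in 64.8% against 46.2%, CCAAT in 40.7% against 38.2%, and the E box CACGTG in 9.26% against 7.84%. These are matches of letters and not binding sites.

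In every surgery, nearly all of the 49 genes had an acetylated and open start. An H3K9ac peak lay at the start of 43 genes (Sham), 46 (SNA), 47 (Lam) and 47 (DCA). For H3K27ac the numbers were 38, 48, 48 and 42, and for ATAC 47 in each of the 4 lists. H3K27me3 peaks lay at 4, 1, 4 and 0 starts (8.16%, 2.04%, 8.16% and 0%, against 22.2%, 16.9%, 25.1% and 8.46% of all genes). Of the 49 genes, 42 had an H3K9ac start peak in all 4 lists (85.7%, against 43.2% of all genes), 35 an H3K27ac peak (71.4% against 32.7%) and 45 an ATAC peak (91.8% against 62.1%). All 3 kinds of peak in all 4 lists were found at 32 genes (65.3% against 28.2%): 13 of 18 deacetylases, 7 of 9 acetyltransferases, 3 of 8 polycomb genes, 3 of 5 demethylases, 3 of 4 methyltransferases, 2 of 3 Tet genes and 1 of 2 readers. The genes with the fewest start peaks were Hdac8 and Hdac9.

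**Figure D1:**
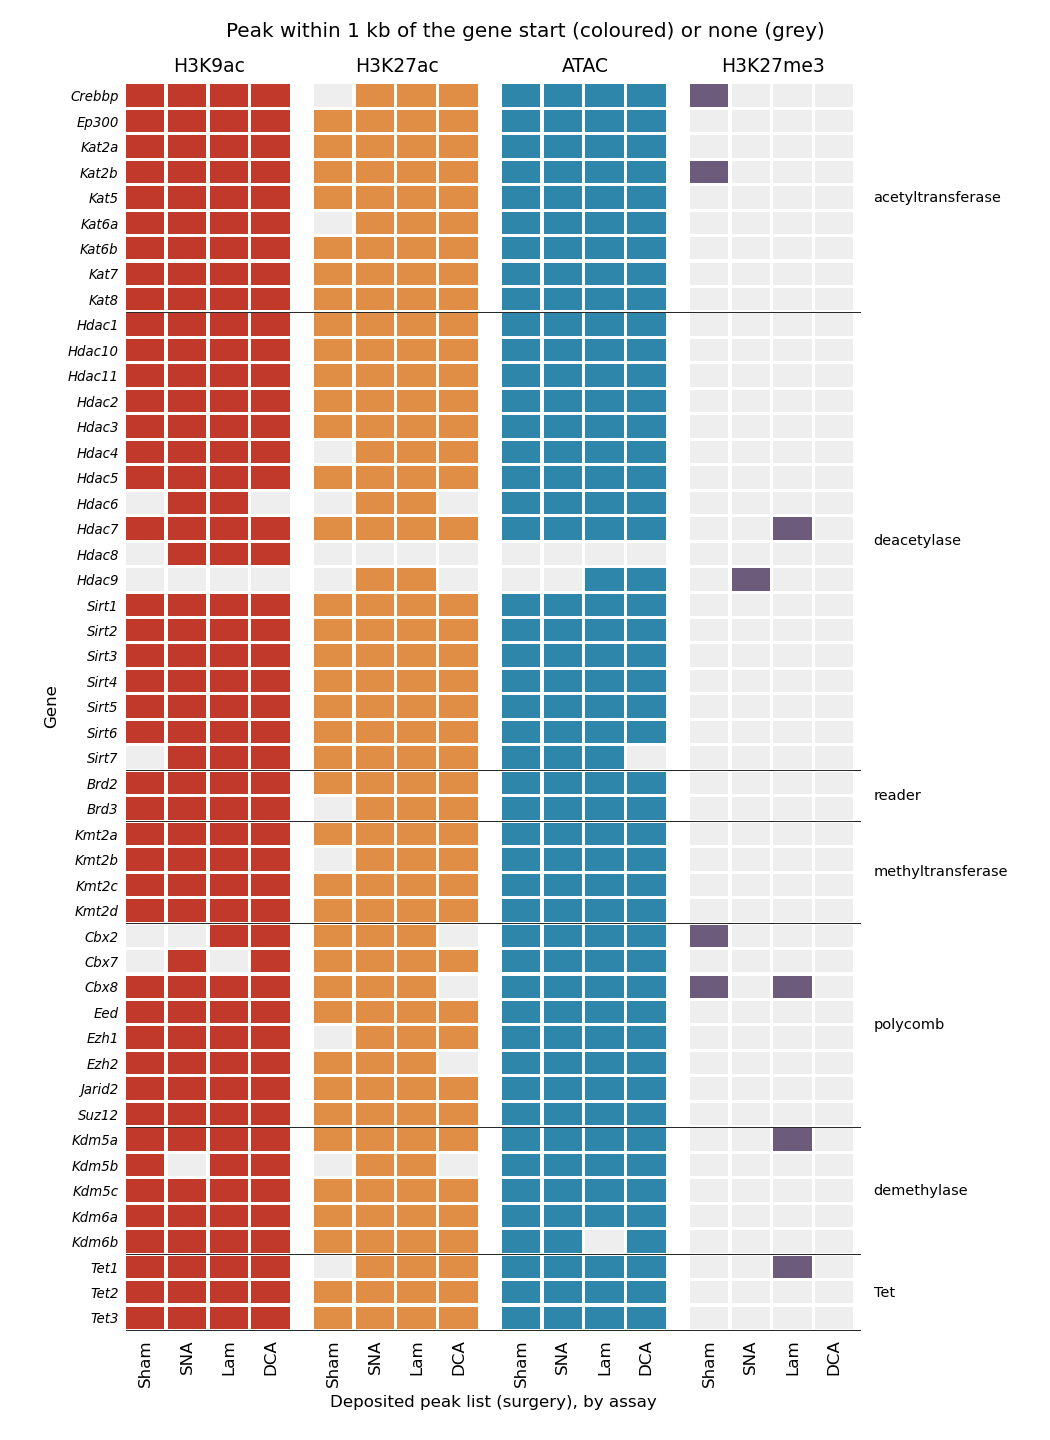
Presence of a peak within 1 kb of the start of each of the 49 genes (rows, grouped by class) in each deposited list (columns, 4 surgeries for each of 4 assays). Coloured cells have a peak and grey cells have none. The H3K9ac and ATAC columns are nearly filled, the H3K27ac column of Sham holds 38 of 49 against 48 in SNA and Lam, and the H3K27me3 columns hold at most 4.

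Few starts differed between an injury and its control, except in H3K27ac. Of 6 genes without an H3K9ac start peak in Sham, 4 had one in SNA (Cbx7, Hdac6, Hdac8 and Sirt7, against 10.4% of all such genes), and of the 43 with one, Kdm5b had none in SNA (7.67%). In DCA against Lam, Cbx7 had a start peak that Lam lacked, 1 of 2 such genes (19.3%), and Hdac6 lacked the peak found in Lam, 1 of 47 (1.12%). ATAC start peaks were at the same genes in SNA and Sham (0 of 2 gained, 0 of 47 lost, against 16.6% and 4.7%). In DCA against Lam, Kdm6b had one more and Sirt7 one fewer (14.8% and 5.07%). Kdm6b is 1 of the 8 genes for which either end was taken. Its ATAC peaks lay at 1 end (chr11:69397503-69398458) and its strongest H3K9ac start peaks at the other (chr11:69419088-69420410). The ATAC peak gained may thus not lie at its start. For H3K27ac, 10 of the 11 genes without a start peak in Sham had one in SNA: Brd3, Crebbp, Ezh1, Hdac4, Hdac6, Hdac9, Kat6a, Kdm5b, Kmt2b and Tet1 (22.8% of all such genes), and 0 of the 38 with one had lost it (5.92%). The same 10 genes had one in Lam (21.9%), where no axon was cut either. In DCA, 6 of the 48 genes with an H3K27ac start peak in Lam had none (20.2%): Cbx2, Cbx8, Ezh2, Hdac6, Hdac9 and Kdm5b. The 1 gene without a peak in Lam, Hdac8, had none in DCA (4.92%).

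Fold enrichment in the deposited lists is a peak's signal over its background as the authors' caller estimated it, and it describes peaks within their own list. Where a gene had several start peaks, the one with the highest −log10 p was taken, so the peaks of different lists need not lie at the same place. The median ATAC start peak was 3.84-fold (Sham), 4.06 (SNA), 3.75 (Lam) and 3.77 (DCA), against 3.23, 3.48, 3.12 and 3.20 over all genes with a start peak. Their median widths were 1285, 1342, 1132 and 1224 bp, against 937, 975, 940 and 988 bp, wider than at genes in general in each list. H3K27ac start peaks had medians of 4.52, 6.25, 6.06 and 5.33-fold, against 4.51, 5.30, 5.32 and 4.82. For H3K9ac the medians were 3.84, 3.58, 3.41 and 5.50-fold, against 4.14, 4.03, 3.52 and 4.90, and the start peaks of the DCA list had a median width of 1359 bp, against 659, 621 and 552 bp in Sham, SNA and Lam. Over all genes the H3K9ac start peaks were wider in DCA as well, with 1160 bp against 628 bp in Lam.

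The whole lists set the scale for what follows. H3K9ac lists held 50332 peaks (Sham), 74652 (SNA), 50667 (Lam) and 89647 (DCA), and H3K27ac lists 43803, 75824, 67311 and 46489. ATAC lists ranged from 153556 to 174605 peaks and H3K27me3 lists from 90011 to 154055. Markers of the other cells of the ganglion were checked at their starts. Among 8 markers of satellite glia and Schwann cells, H3K9ac start peaks were found at 6, 7, 7 and 7, and H3K27ac start peaks at 6, 7, 8 and 3, in the order Sham, SNA, Lam and DCA. Of 8 sensory neuron markers, 0, 1, 1 and 2 had an H3K9ac start peak, 1, 3, 2 and 2 an H3K27ac start peak, and 6, 7, 7 and 7 an ATAC start peak. Macrophage markers (6 genes) had 1, 1, 1 and 2 H3K9ac start peaks, and the 6 markers of other tissues had no H3K9ac or H3K27ac start peak but 2, 3, 2 and 3 ATAC start peaks. Each acetylation list thus held more of the glial starts than of the neuronal ones, though only 3 against 2 for H3K27ac in DCA. The part of each cell type in the members' peaks was not tested.

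Summed over the 49 windows, the number of acetylation peaks followed the size of the list. The members held 253 H3K9ac peaks (Sham), 369 (SNA), 261 (Lam) and 436 (DCA). On the log2 scale the SNA number was 0.54 above Sham, where the whole list was 0.57 larger, and the DCA number was 0.74 above Lam, where the list was 0.82 larger. H3K27ac peaks numbered 214, 322, 324 and 230, with log2 ratios of 0.59 from Sham to SNA (list 0.79) and -0.49 from Lam to DCA (list -0.53). The H3K27ac count was thus higher in SNA and Lam than in Sham and DCA, which is not a division between cut and uncut axons. ATAC peaks numbered 410, 481, 450 and 455, log2 ratios of 0.23 (list 0.19) and 0.02 (list 0.06). In sequence covered, H3K9ac peaks took up 144, 224, 134 and 351 kb of the windows, and the log2 ratio of DCA over Lam was 1.39, against 1.37 for the whole list.

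Gene by gene, 30 of the 49 held more H3K9ac peaks in SNA than in Sham and 5 held fewer, where 38.9% of all genes held more and 11.4% fewer. In DCA against Lam, 35 held more and 6 fewer (47.6% and 8.63% of all genes). Lam against Sham, with no axon cut, split evenly, with 21 genes higher and 18 lower (25.1% and 23.0%). A nearer background is the 13539 genes with an H3K9ac start peak in any list, of which 56.2% held more and 16.0% fewer in SNA, and 67.7% and 12.2% in DCA. Beside those shares the members' 61.2% and 71.4% are near the background.

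For H3K27ac, 35 members held more peaks in SNA than in Sham and 7 fewer (43.9% and 12.7% of all genes, 64.3% and 14.1% of genes with an H3K9ac start peak), and 7 held more and 33 fewer in DCA than in Lam (12.1% and 38.9%, or 16.1% and 55.8%). Lam against Sham gave 31 more and 7 fewer (41.6% and 11.1%), a split close to that of SNA against Sham. In ATAC, 33 members held more peaks in SNA and 10 fewer (46.8% and 24.1%, or 55.4% and 25.2%), against 27 and 11 in Lam over Sham (41.4% and 29.4%). DCA against Lam gave 19 more and 20 fewer (35.1% and 34.7%, or 38.8% and 40.8%), an even split in the members and in all genes alike.

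**Figure D2:**
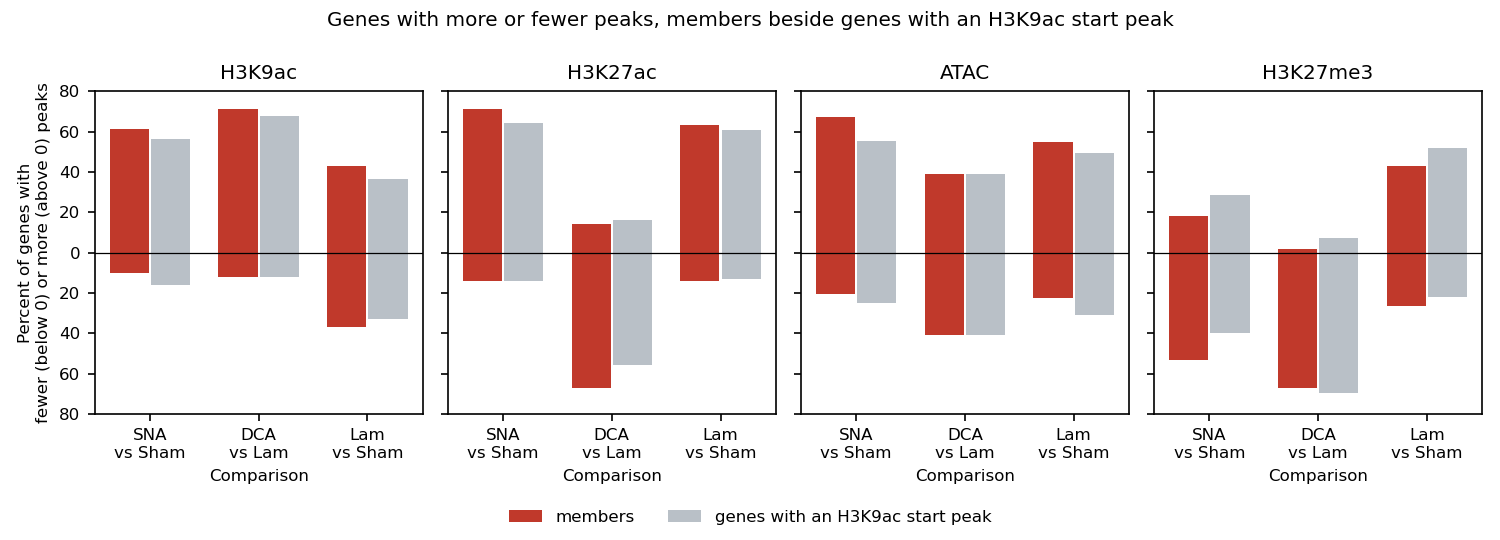
Percent of genes with more peaks (bars above 0) or fewer peaks (bars below 0) in the first list of each comparison, for the 49 members (red) and the 13539 genes with an H3K9ac start peak in any list (grey), by assay. For H3K9ac in SNA 61.2% of the members against 56.2% of the background were higher, for H3K27ac in DCA 67.3% against 55.8% were lower, and for H3K27me3 in SNA 53.1% against 39.9% were lower.

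These counts depended on list size. When each list was cut to its strongest peaks, so that the 4 lists of an assay had equal sizes, the difference in H3K9ac peaks summed over the members went from 116 to -6 for SNA against Sham and from 175 to 16 for DCA against Lam. For H3K27ac it went from 108 to -16 and from -94 to -3. Of the 30 members with more H3K9ac peaks in SNA than in Sham, 14 still held more at equal list sizes, 8 held as many and 8 held fewer (Cbx7, Hdac1, Hdac4, Hdac7, Kat2a, Kat2b, Kat6b and Tet2). Of the 35 with more in DCA than in Lam, 18 still held more, 12 held as many and 5 held fewer (Ezh1, Hdac7, Jarid2, Kat6b and Tet2). For H3K27ac, 15 of the 35 with more in SNA still held more and 8 held fewer, and 20 of the 33 with fewer in DCA still held fewer and 6 held more. The values of single genes below are as deposited unless equal list sizes are named.

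**Figure D3:**
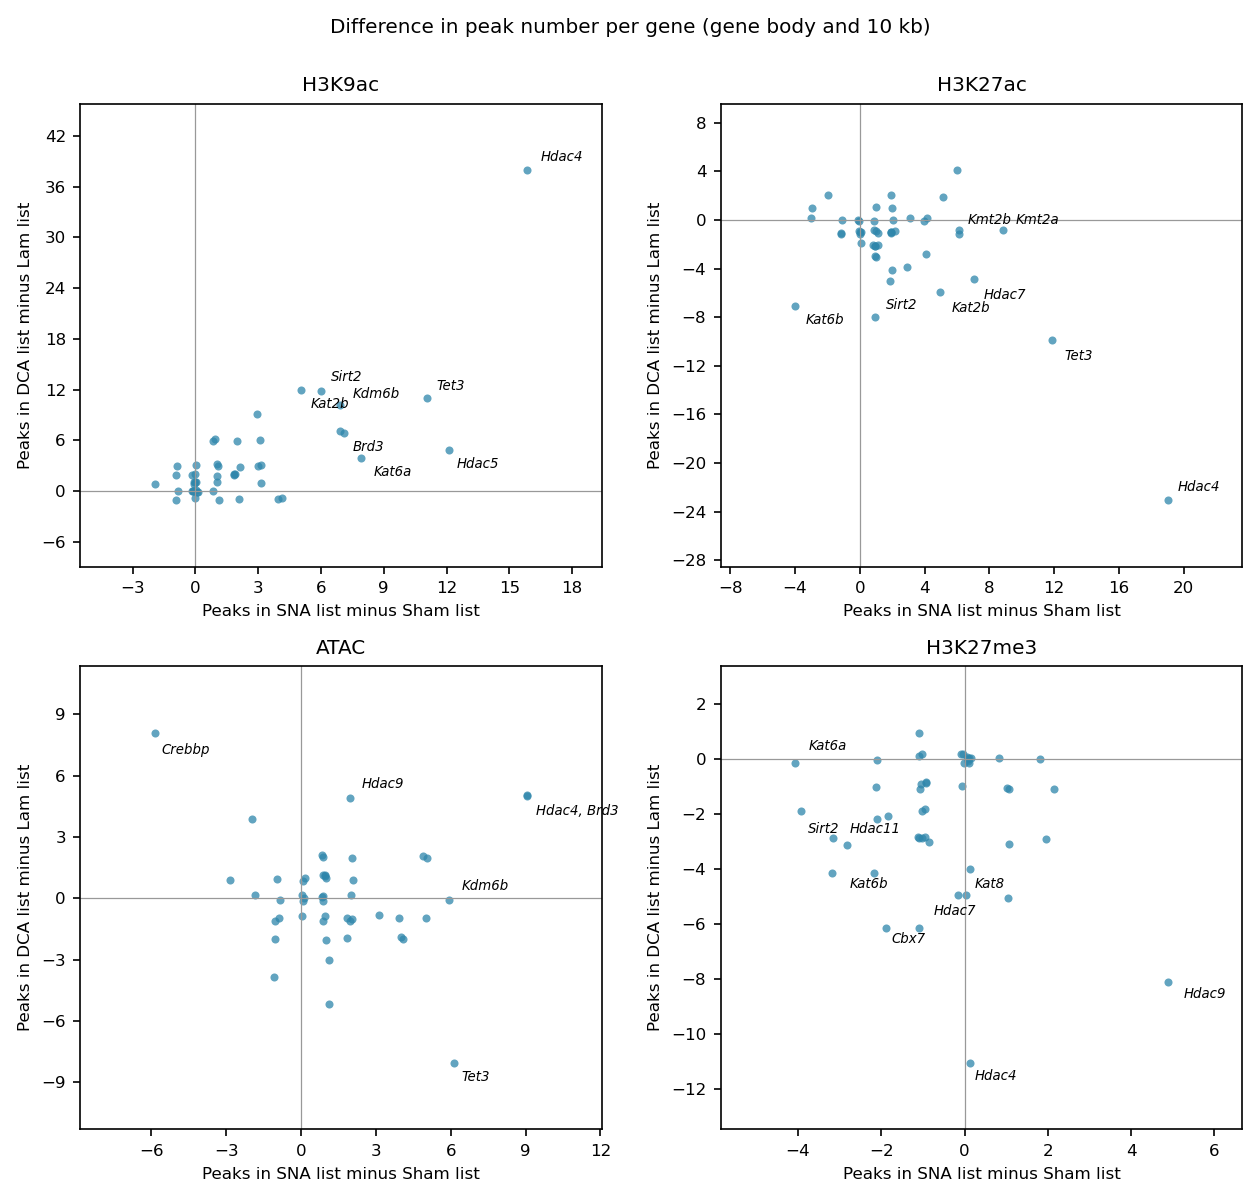
Difference in the number of peaks per gene, SNA minus Sham (horizontal) against DCA minus Lam (vertical), with 1 panel per assay and 1 point per member (moved by up to 0.18 to separate ties). Hdac4 lies farthest out for H3K9ac (16 and 38) and for H3K27ac (19 and -23), and most H3K27ac points lie to the right of 0 and below it.

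Among the acetyltransferases, the deposited lists of both injuries held more H3K9ac peaks than their controls at most genes, which does not hold for SNA at equal list sizes. The 9 genes held 43 H3K9ac peaks (Sham), 74 (SNA), 50 (Lam) and 84 (DCA), with 8 of 9 higher in SNA and 8 of 9 higher in DCA (56.2% and 67.7% of genes with an H3K9ac start peak). At equal list sizes 2 were higher and 4 lower in SNA, and 6 higher and 2 lower in DCA. Of genes with an H3K9ac start peak 29.7% were then higher and 37.5% lower in SNA, and 34.9% and 33.8% in DCA. H3K27ac peaks numbered 45, 54, 66 and 49, and ATAC peaks 61, 65, 67 and 77. All 9 starts carried H3K9ac and ATAC peaks in every list.

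Kat2b (chr17:53566774-53672721), which acetylates H3K9, held 10 H3K9ac peaks (Sham), 15 (SNA), 9 (Lam) and 21 (DCA). The sequence they covered was 4.01, 10.7, 4.43 and 16.3 kb, so both injury lists lie above both controls. The gene has 2 annotated starts, and the H3K9ac peaks within 1 kb of either were together 681 bp (Sham), 2963 bp (SNA), 1055 bp (Lam) and 4808 bp (DCA) wide. H3K27ac peaks numbered 9, 14, 15 and 9. At equal list sizes the H3K9ac numbers were 10, 9, 9 and 13, so that SNA no longer lay above Sham. Of 4 H3K9ac regions found in both injury lists and in neither control, the one with the highest −log10 p in DCA ended just inside the gene, at chr17:53565835-53566800, with a −log10 p of 5.16 in SNA and 13.1 in DCA.

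Crebbp (chr16:4081334-4213957), the CREB binding protein, held few acetylation peaks: 2, 4, 3 and 6 for H3K9ac and 3, 4, 3 and 3 for H3K27ac. Its start had no H3K27ac peak in Sham and peaks of 5.29, 5.40 and 5.15-fold in SNA, Lam and DCA. ATAC peaks numbered 15 (Sham), 9 (SNA), 9 (Lam) and 17 (DCA), so the injuries differed from their controls in opposite directions, and the ATAC numbers at equal list sizes were 15, 8, 9 and 17.

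Ep300 (chr15:81586209-81652077), the paralogue of Crebbp, had a start open in every list, with ATAC peaks of 4.58, 5.11, 6.02 and 5.05-fold at the CpG-rich promoter printed above. Over the window, ATAC peaks numbered 2 (Sham), 7 (SNA), 4 (Lam) and 6 (DCA), and the numbers were the same at equal list sizes. Both injury lists lie above both controls. For ATAC 8 members met that condition, Ep300 and Brd3 among them (16.3%, against 12.8% of all genes and 15.0% of genes with an H3K9ac start peak). At equal list sizes 5 did so (10.2%, against 9.05% and 10.5%), so the members' shares are near the background. ATAC regions found in both injury lists and neither control list lay in the Ep300 gene body at chr15:81601037-81601564 and downstream of it at chr15:81654735-81655232. H3K27ac ran the other way at 1 place: a peak at chr15:81613858-81614257, inside the gene, was in both control lists (−log10 p of 23.6 in Sham and 12.9 in Lam, as the authors' caller gave them) and in neither injury list.

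The MYST acetyltransferases Kat6a and Kat6b differed from each other in H3K27ac. Kat6a held 2, 10, 8 and 12 H3K9ac peaks and 2, 8, 3 and 7 H3K27ac peaks. As deposited, both marks had more peaks in both injury lists than in either control, as at Hdac5. For H3K27ac 4 members did so (8.16%, against 4.86% of all genes and 7.18% of genes with an H3K9ac start peak). At equal list sizes 3 members did so, Kat6a among them (6.12%, against 6.09% and 9.21%). These shares are near or below those of genes with an H3K9ac start peak. At equal list sizes the H3K9ac numbers of Kat6a were 2, 3, 8 and 9, with SNA below Lam. An H3K27ac region in both injury lists only lay at chr8:22860076-22860497. Kat6b held 7, 14, 10 and 17 H3K9ac peaks but 12, 8, 17 and 10 of H3K27ac, the 1 member with fewer H3K27ac peaks in both injury lists than in either control (3.89% of all genes). At equal list sizes the Kat6b numbers were 7, 6, 10 and 8 for H3K9ac and 12, 6, 13 and 9 for H3K27ac, so its H3K9ac numbers in both injuries turned to lower ones than in their controls. At Kat7, which acetylates histones at replication origins and active genes, ATAC peaks numbered 2, 7, 2 and 4.

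**Figure D4:**
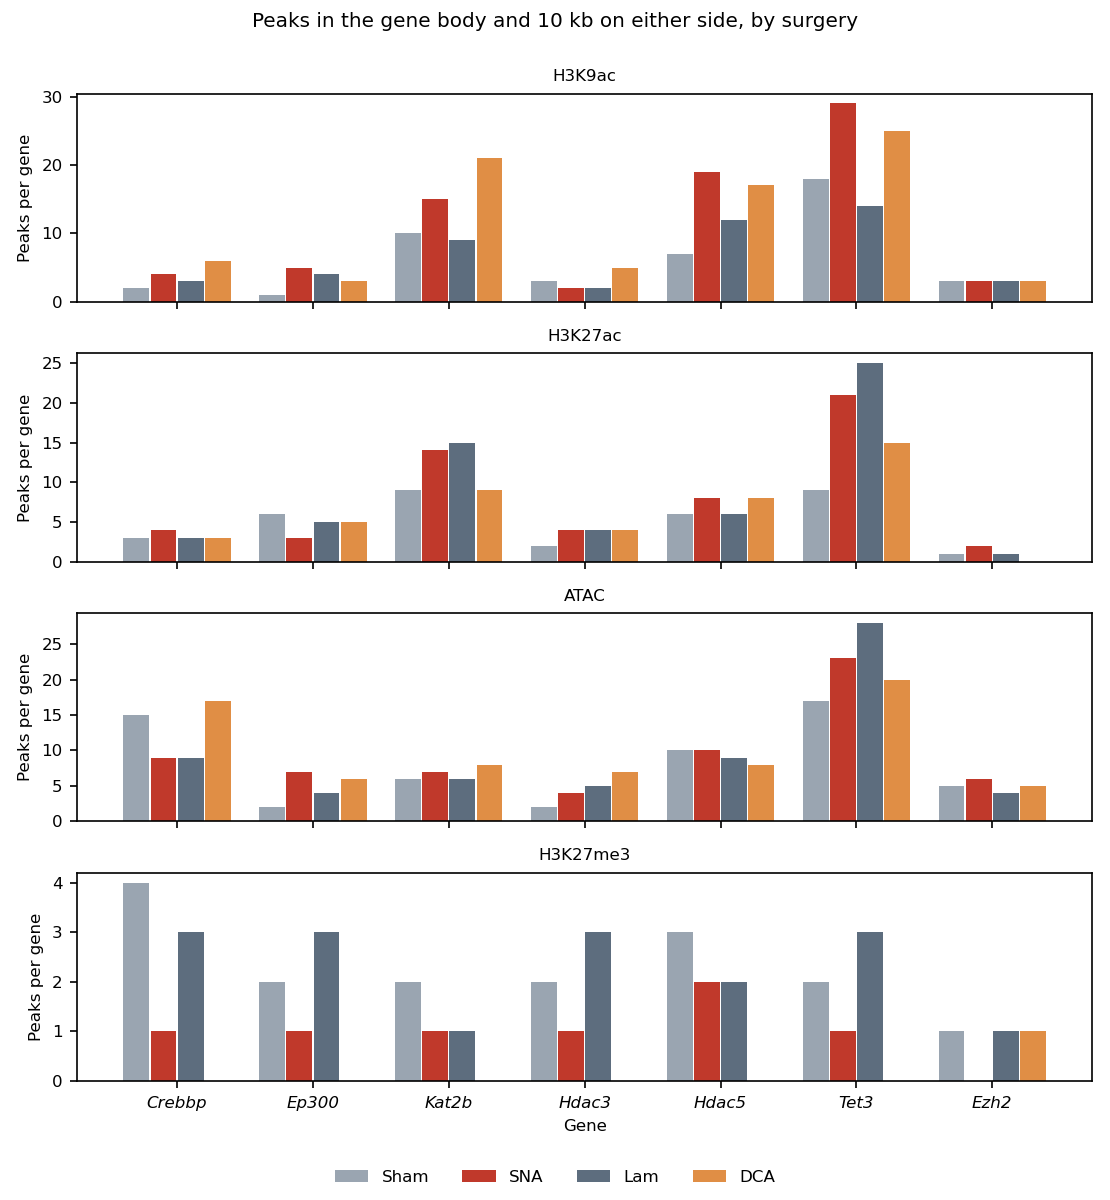
Number of deposited peaks in the gene body and 10 kb on either side (vertical axis, peaks per gene) for Crebbp, Ep300, Kat2b, Hdac3, Hdac5, Tet3 and Ezh2, with 1 bar per surgery and 1 panel per assay. H3K9ac bars of SNA and DCA lie above those of Sham and Lam at Crebbp, Kat2b, Hdac5 and Tet3, and no DCA bar appears for H3K27me3 except at Ezh2.

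The 18 deacetylases held 118, 166, 103 and 184 H3K9ac peaks, with 12 genes higher and 4 lower in SNA and 11 higher and 3 lower in DCA. Of genes with an H3K9ac start peak 56.2% were higher and 16.0% lower in SNA, and 67.7% and 12.2% in DCA, so the class lies near the background. At equal list sizes 6 were higher and 7 lower in SNA, and 7 higher and 4 lower in DCA. The shares of genes with an H3K9ac start peak were then 29.7% higher and 37.5% lower in SNA, and 34.9% and 33.8% in DCA. H3K27ac peaks numbered 86, 133, 126 and 80, and ATAC peaks 166, 190, 176 and 181. Class IIa deacetylases, which shuttle between nucleus and cytoplasm, include Hdac4, Hdac5 and Hdac7, with many H3K9ac peaks, and Hdac9, with few.

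Hdac5 (chr11:102195747-102230172) had 7 H3K9ac peaks (Sham), 19 (SNA), 12 (Lam) and 17 (DCA). They covered 2.73, 8.59, 4.78 and 12.0 kb. With lists of equal size the numbers were 7, 14, 11 and 12. Hdac5 was then 1 of 4 members, with Crebbp, Kdm6b and Kmt2d, holding more H3K9ac peaks in both injury lists than in either control. They were 8.16% of members, against 4.68% of all genes and 6.76% of genes with an H3K9ac start peak. As deposited, 18 members met that condition (36.7%, against 22.7% and 33.5%), which is near the share of genes with an H3K9ac start peak. An H3K9ac peak just upstream of the Hdac5 start was in every list, at 3.78-fold (Sham), 5.20 (SNA), 3.88 (Lam) and 5.79 (DCA). A second peak just downstream of the start was absent from Sham and was 1.87-fold in SNA, 3.48-fold in Lam and 7.35-fold in DCA. H3K9ac regions found in both injury lists and neither control numbered 5 in the window, 4 of them inside the gene, and an H3K27ac region of the same kind lay at chr11:102227432-102228051. ATAC peaks did not follow, with 10, 10, 9 and 8.

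Hdac4 (chr1:91928779-92195702) held the most peaks of any member in every H3K9ac list and every ATAC list: 37, 53, 25 and 63 for H3K9ac and 44, 53, 48 and 53 for ATAC. Its window is long, at 286.9 kb. Per 10 kb, averaged over the lists, it held 1.55 H3K9ac and 1.73 ATAC peaks. The highest such values of the members were 3.47 (Sirt7) and 2.87 (Sirt4). For H3K27ac it held 13, 32, 39 and 16, with SNA and Lam together above Sham and DCA. No H3K27ac peak lay at its start in Sham, while the SNA, Lam and DCA lists held 3, 2 and 1 there. With lists of the same size, its H3K9ac numbers were 37, 26, 25 and 28 and its H3K27ac numbers 13, 13, 19 and 12, so the higher H3K9ac number in SNA than in Sham turned to a lower one. Its ATAC numbers were then 44, 43, 48 and 47.

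Hdac3, the catalytic subunit of the nuclear receptor corepressor complexes, had a start peak of H3K9ac, H3K27ac and ATAC in every list. Its H3K9ac start peak was 5.56-fold (Sham), 7.50 (SNA), 5.33 (Lam) and 5.01 (DCA). The window, shared with Diaph1, Rell2 and Fchsd1, held 3, 2, 2 and 5 H3K9ac peaks and 2, 4, 4 and 4 of H3K27ac. ATAC peaks numbered 2, 4, 5 and 7.

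Among the other zinc-dependent deacetylases, Hdac1 and Hdac2, the paired subunits of several corepressor complexes, held 4, 5, 3 and 9 and 3, 1, 1 and 2 H3K9ac peaks. In lists of equal size, those of Hdac1 were 4, 2, 3 and 6. Hdac10 held 3, 2, 3 and 2, the 1 member with fewer in both injury lists than in either control (0.937% of all genes). At Hdac6, the X-linked deacetylase of tubulin, H3K9ac and H3K27ac start peaks were in the SNA and Lam lists and absent from Sham and DCA, while ATAC start peaks of 4.01 to 5.27-fold were in all 4.

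Hdac8 and Hdac9 are the deacetylases with the fewest start peaks. Hdac8 (chrX:102284638-102505381) had no H3K27ac and no ATAC start peak in any list, and H3K9ac start peaks of 3.83, 3.12 and 4.16-fold in SNA, Lam and DCA. Over its whole window it held 0, 1, 1 and 1 H3K9ac peaks, 1, 0, 0 and 0 H3K27ac peaks and no ATAC peak. Hdac9 (chr12:34047580-34917095), the longest member with 869.5 kb, had no H3K9ac start peak in any list, H3K27ac start peaks in SNA and Lam only, and weak ATAC start peaks in Lam (1.76-fold) and DCA (1.91-fold). Its window of 889.5 kb still held 28, 30, 24 and 29 ATAC peaks and, more than any other member, 20, 25, 20 and 12 H3K27me3 peaks. Per 10 kb, averaged over the lists, it held 0.312 ATAC and 0.216 H3K27me3 peaks. The highest such H3K27me3 value of the members was 1.02 (Cbx8). The Hdac8 and Hdac9 promoters are those printed above with 0 to 6 CpG.

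The sirtuins are deacetylases that need NAD. Sirt2, a mainly cytoplasmic sirtuin abundant in myelinating glia, held 10, 16, 8 and 20 H3K9ac peaks and 14, 15, 14 and 6 H3K27ac peaks, the latter lowest in DCA. Once the lists were cut to equal sizes, its H3K27ac numbers were 14, 7, 11 and 6. Sirt7, a nucleolar sirtuin, lacked an H3K9ac start peak in Sham and had peaks of 3.80, 3.54 and 5.11-fold in the other lists. Its ATAC start peak was in Sham, SNA and Lam (2.18, 1.88 and 1.92-fold) and not in DCA. Sirt1, the nuclear sirtuin best known for deacetylating p53, kept 1 or 2 peaks per acetylation list. Sirt5, a mitochondrial sirtuin, held 5, 4, 5 and 3 ATAC peaks, the 1 member lower in both injury lists than in either control (5.79% of all genes).

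**Figure D5:**
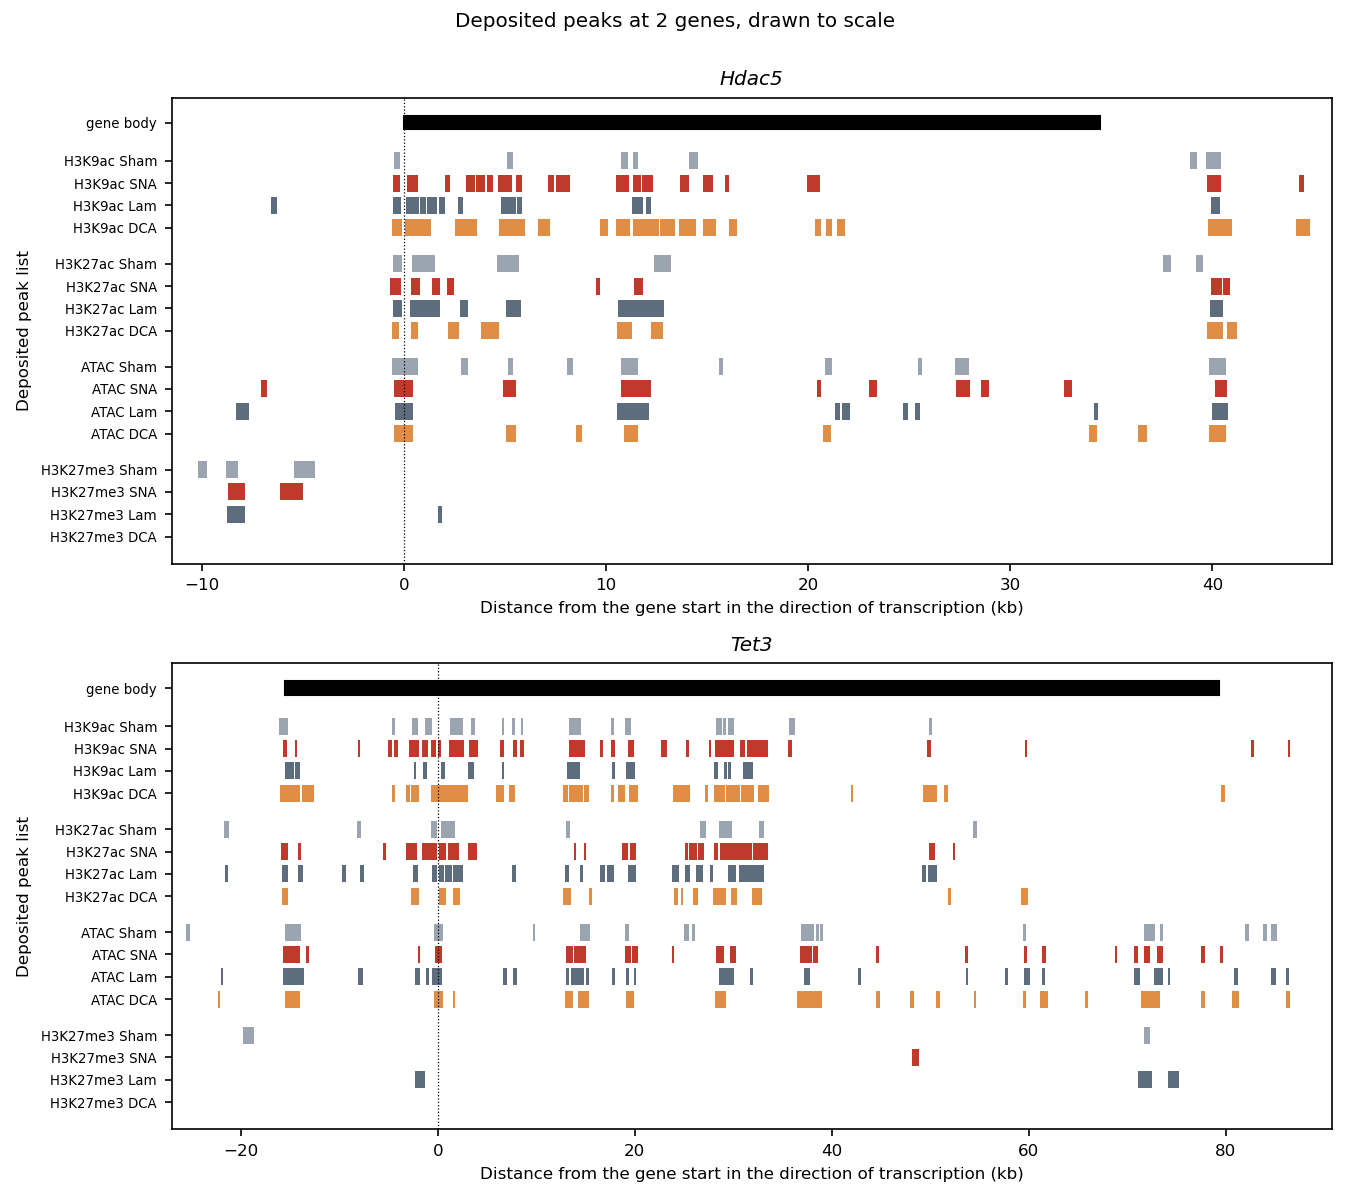
Deposited peaks at Hdac5 (upper panel) and Tet3 (lower panel), drawn to scale by distance from the annotated start in kb in the direction of transcription, with 1 row per list, coloured by surgery, and the gene body as a black bar (that of Tet3 begins upstream of the start used). H3K9ac peaks within Hdac5 are more numerous in SNA (19 in the window) and wider in DCA (17, covering 12.0 kb), and no H3K27me3 peak of the DCA list lies at either gene.

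Both bromodomain readers had acetylated and open starts. Brd2, which binds acetylated histone tails, had the highest H3K27ac start peak of all members in each list, 13.4-fold (Sham), 12.7 (SNA), 20.4 (Lam) and 10.1 (DCA), over 2110, 3096, 3259 and 3092 bp. Brd3 held 9, 16, 6 and 13 H3K9ac peaks and 7, 16, 10 and 15 ATAC peaks, with both injury lists above both controls in each assay. With equal list sizes its ATAC numbers were 7, 15, 10 and 14, while for H3K9ac the injury lists no longer both lay above the controls.

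All 4 methyltransferases of the Kmt2 family had H3K9ac and ATAC start peaks in every list. Their H3K9ac peaks numbered 16, 18, 18 and 24 and their H3K27ac peaks 13, 28, 24 and 19. Kmt2a, also called MLL1, held 2, 11, 5 and 4 H3K27ac peaks, and Kmt2b held 1, 7, 4 and 3. With the 4 lists cut alike, Kmt2a held 2, 4, 2 and 4, with SNA and DCA level, and Kmt2b 1, 5, 3 and 2. Kmt2b had no H3K27ac start peak in Sham and had 3, 2 and 1 in SNA, Lam and DCA. Next to Kmt2b, at chr7:30563332-30563901, lay 1 of the 11 H3K27ac regions found in both injury lists only. Its −log10 p of 19.4 was the highest of the 11 in SNA, while in DCA its 7.95 was below the 9.90 of the region at Kdm6b and the 9.40 of that at Kat2a.

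Polycomb genes encode the complexes that write or bind H3K27me3. The 8 genes had 7, 8, 8 and 5 H3K27ac start peaks in the order given, and those of Cbx2, Cbx8 and Ezh2 were missing from DCA alone. They were 3 of the 6 members with such a peak in Lam and none in DCA. H3K9ac peaks of the class numbered 24, 29, 37 and 52, with 6 genes higher and none lower in DCA against Lam (67.7% and 12.2% of genes with an H3K9ac start peak). With lists of the same size, the class held 24, 19, 37 and 29, and Cbx2 was higher in DCA while Ezh2, Eed, Ezh1 and Jarid2 were lower. Of genes with an H3K9ac start peak 34.9% were then higher and 33.8% lower in DCA.

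Ezh2 (chr6:47530274-47595270), the H3K27 methyltransferase of dividing cells, varied little, with 3 H3K9ac peaks in each list and 5, 6, 4 and 5 ATAC peaks. Its ATAC start peak was among the strongest of the members, at 8.49, 7.93, 6.36 and 7.73-fold. H3K27ac start peaks of 3.89, 3.08 and 3.07-fold were in Sham, SNA and Lam. Ezh1, its paralogue in cells that no longer divide, held 4, 6, 7 and 13 H3K9ac peaks and 7, 12, 7 and 9 H3K27ac peaks. In lists of equal size, its numbers were 4, 6, 7 and 4 for H3K9ac and 7, 4, 7 and 9 for H3K27ac, so that DCA turned lower than Lam for H3K9ac and SNA lower than Sham for H3K27ac. The Ezh1 start had an H3K27ac peak in all lists but Sham. Cbx7, a chromobox subunit that binds H3K27me3, had an H3K9ac start peak in SNA (3.25-fold) and DCA (4.23-fold) and in neither control, the only member with that pattern, though these strongest peaks of the 2 lists share no base. Jarid2 held 3, 6, 11 and 12 H3K9ac peaks (3, 3, 11 and 7 at equal list sizes), while the core subunits Eed and Suz12 held 1 to 3 in each list.

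Kdm6b, an H3K27 demethylase also called JMJD3, held the most H3K9ac peaks of the 5 demethylases in every list. It had 8, 15, 7 and 17 H3K9ac peaks, 8, 12, 14 and 14 H3K27ac peaks and 8, 14, 10 and 10 ATAC peaks. Once the lists were cut to equal sizes, the H3K9ac numbers were 8, 11, 7 and 15, with both injury lists still above both controls, and the H3K27ac numbers were 8, 9, 9 and 13. H3K9ac regions in both injury lists only numbered 3 in its window, and an H3K27ac region of that kind lay at chr11:69394694-69395175. Because parts of Cyb5d1, Naa38, Tmem88 and Dnah2 lie in the same window, these peaks cannot be assigned to Kdm6b alone. Kdm5b, which removes H3K4 methylation, lacked an H3K9ac start peak in SNA and had one of 7.25-fold over 2715 bp in DCA, while its H3K27ac start peak was in SNA and Lam only. Kdm5a, Kdm5c and Kdm6a held between 1 and 4 H3K9ac peaks in each list.

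The Tet genes held 23, 38, 23 and 44 H3K9ac peaks, with all 3 higher in SNA than in Sham and in DCA than in Lam (56.2% and 67.7% of genes with an H3K9ac start peak). With the 4 lists cut alike, Tet2 was lower in both comparisons and Tet1 was level in DCA and Lam. Tet3 (chr6:83362373-83457208), the Tet enzyme studied in regenerating sensory neurons, held 18, 29, 14 and 25, covering 9.58, 18.2, 8.03 and 23.7 kb. Its H3K27ac peaks numbered 9, 21, 25 and 15 and its ATAC peaks 17, 23, 28 and 20, so for these assays Lam held the most. In lists of equal size the H3K9ac numbers were 18, 20, 14 and 16, and DCA no longer lay above Sham, while the H3K27ac numbers were 9, 13, 14 and 14, with Lam and DCA level. An ATAC region in both injury lists only, near the 3′ end of the gene at chr6:83363785-83364215, had a −log10 p of 13.4 in SNA and 4.75 in DCA.

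Tet1 (chr10:62804570-62887469) held 3, 6, 6 and 15 H3K9ac peaks, or 3, 6, 6 and 6 at equal list sizes, and its start had an H3K27ac peak in all lists but Sham. In its body lay the only place among the 49 windows where regions present in both injury lists and in neither control coincided in 2 assays. The H3K9ac region was chr10:62847036-62847836, with a −log10 p of 6.50 in SNA and 6.41 in DCA, and the ATAC region was chr10:62847031-62847763, with 3.29 and 3.15. Tet2 held 2, 3, 3 and 4 H3K9ac peaks (2, 1, 3 and 2 at equal list sizes) and 11, 10, 4 and 5 ATAC peaks.

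H3K27me3 peaks were sparse per length of window at these genes, and fewest in DCA, whose whole list was also the smallest. The 45 autosomal members held 0.232, 0.166, 0.3001 and 0.0703 peaks per 10 kb, against 0.485, 0.509, 0.659 and 0.305 for all autosomal genes. A peak lay in 37, 29, 39 and 13 of the 49 windows, against 70.97%, 65.51%, 76.01% and 47.48% of all genes. The members' share was above that of all genes in Sham and Lam, and below it in SNA and DCA. The 49 windows held 99 peaks (Sham), 71 (SNA), 133 (Lam) and 30 (DCA), log2 ratios of -0.48 (SNA over Sham) and -2.15 (DCA over Lam). The whole lists had 0.20 and -0.78, so the members' peaks were fewer than the size of the lists gives. The sequence covered was 121, 74.1, 133 and 29.0 kb. In SNA against Sham, 26 members held fewer peaks and 9 more (33.8% and 32.5% of all genes), and in DCA against Lam 33 held fewer and 1 more (61.5% and 10.3%). Among genes with an H3K9ac start peak in any list 39.9% held fewer and 28.4% more in SNA, and 69.4% and 7.16% in DCA. The members' shares with fewer peaks were 53.1% in SNA, above that background, and 67.3% in DCA, near it. The summed differences of -28 and -103 were -29 and -46 at equal list sizes, and -10 and -67 with 2 kb in place of 10 kb on either side. Assigning each peak to its nearest gene gave -14 for SNA.

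In both injury lists 17 members held fewer H3K27me3 peaks than in either control (34.7%, against 21.5% of all genes), and 14 did so at equal list sizes (28.6% against 15.1%). Of genes with an H3K9ac start peak, 27.25% did so as deposited and 18.98% at equal list sizes, which is nearer to the members' shares. Crebbp was among them with 4, 1, 3 and 0 peaks, Tet3 and Ep300 with 2, 1, 3 and 0 each, and Sirt2 with 4, 0, 2 and 0. No member held more in both injury lists than in either control. These peaks were weak: of 97, 70, 131 and 30 distinct peaks in the windows, none had a q of 0.05 or less, and their median fold enrichment was 1.13, 1.16, 1.19 and 1.20. The highest −log10 q, as deposited, was 0.95, at Kat6a in Sham. In the whole lists 1613, 218, 916 and 43 peaks reached that q.

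Peaks with no counterpart in the other list of a comparison lay mostly inside genes and away from starts, in injury and control lists alike. In the windows 178 of 369 distinct H3K9ac peaks of SNA overlapped no Sham peak (48.2%, Wilson 95% interval 43.2% to 53.3%, whole list 49.5%), and 257 of 434 of DCA overlapped no Lam peak (59.2%, 54.5% to 63.7%, whole list 61.8%). For H3K27ac the shares were 54.1% (48.6% to 59.4%) against 65.3% in SNA and 25.7% (20.4% to 31.7%) against 27.9% in DCA. The intervals cover counting error only. Of the 178 SNA peaks, 22 were at starts (12.4%) and 125 in gene bodies, while 65 of the 191 shared peaks were at starts (34.0%). Of the 257 DCA peaks, 15 were at starts (5.84%), against 69 of 177 shared peaks (39.0%). ATAC peaks showed the same division, with 5 of 246 unshared and 56 of 229 shared SNA peaks at starts. The control lists were divided likewise. For H3K9ac, 7 of 47 peaks in Sham and not SNA were at starts, against 63 of 205 shared ones. In Lam and not DCA 1 of 30 was, against 85 of 229 shared ones. For ATAC, 4 of 179 unshared and 57 of 228 shared Sham peaks were at starts.

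When the 4 lists of an assay were merged, the windows held 525 H3K9ac regions. Of these 38 were in both injury lists only (7.24%, against 8.52% of regions genome-wide) and 0 in both control lists only, which allows a share of up to 0.571% (genome-wide 0.366%). Hdac4 held 8 of the 38, Hdac5 5, Kat2b 4 and Kdm6b 3. Among 445 H3K27ac regions, 11 were in both injury lists only and 9 in both control lists only (2.47% and 2.02%, against 2.32% and 2.55% genome-wide), and among 900 ATAC regions 28 and 18 (3.11% and 2.00%, against 4.26% and 2.62%). These shares are near or below those of the genome. At some places accessibility and acetylation were both present in an injury list and absent from its control. In SNA 24 such sites with H3K9ac lay at 16 genes and 17 with H3K27ac at 11 genes, and in DCA 24 at 15 genes and 3 at 2 genes. As shares of the ATAC peaks in the windows these were 5.05% and 3.58% in SNA, against 2.46% and 2.503% of the whole ATAC list, and 5.30% and 0.662% in DCA, against 3.46% and 0.583%. Sites in Sham and not in SNA numbered 5 and 3 (1.23% and 0.737%, against 0.545% and 0.641%), and those in Lam and not in DCA 3 and 13 (0.671% and 2.91%, against 0.475% and 1.97%), so the members' shares lay above those of the list in the control lists too. Hdac4 held 8 of the 24 H3K9ac sites in SNA and 6 of the 24 in DCA.

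The 4 X-linked members (Hdac6, Hdac8, Kdm5c and Kdm6a) held few peaks of any kind. Their ATAC peaks per 10 kb of window numbered 0.103 (Sham), 0.186 (SNA), 0.0827 (Lam) and 0.145 (DCA), against 0.9497, 1.11, 1.05 and 1.05 for the 45 autosomal members. All X-linked genes were as sparse, with 0.0835, 0.101, 0.0802 and 0.0864, against 0.924, 1.08, 1.01 and 1.01 for all autosomal genes.

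Another 42 chromatin genes, among them those of corepressor subunits, other methyltransferases and demethylases, and DNA methyltransferases, were counted in the same way. H3K9ac peaks were more numerous at 23 and fewer at 11 in SNA than in Sham, and more at 31 and fewer at 5 in DCA than in Lam. Of genes with an H3K9ac start peak in any list, 56.2% held more and 16.0% fewer in SNA, and 67.7% and 12.2% in DCA. Of all genes the shares were 38.9% and 11.4%, and 47.6% and 8.63%. For H3K27ac the counts were 33 and 4 in SNA, and 5 and 26 in DCA. Of genes with an H3K9ac start peak 64.3% held more and 14.1% fewer in SNA, and 16.1% and 55.8% in DCA (all genes 43.9% and 12.7%, and 12.1% and 38.9%). H3K27me3 peaks were fewer at 17 and more at 11 in SNA, and fewer at 29 and more at 1 in DCA. Of genes with an H3K9ac start peak 39.9% held fewer and 28.4% more in SNA, and 69.4% and 7.16% in DCA (all genes 33.8% and 32.5%, and 61.5% and 10.3%). H3K9ac start peaks were found at 34, 36, 36 and 40 of the 42, against 50.1%, 51.4%, 51.1% and 59.9% of all genes.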

How the data were processed

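H3K9ac, H3K27ac and H3K27me3 ChIP-seq and ATAC-seq peak lists were used as the authors deposited them, 1 per assay and surgery (16 lists), with replicates pooled per the labels. The build is mm10 per the submitters' processing notes; the aligner, peak caller and thresholds are not given in the sources used here. The deposited columns hold a display score, a fold enrichment as a linear ratio, and the caller's −log10 p and −log10 q. They serve here to rank, select or describe the peaks of a single list. Lines of an ATAC list that repeat an interval were merged.

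Genes and promoters came from RefSeq tables for GRCm38.p6. Peaks were counted per gene body with 10 kb on either side, and at starts within 1 kb. An overlap of 1 bp or more made peaks of 2 lists shared. Shares have Wilson 95% intervals (counting error only). No test was run. The 49 members and the other gene lists were chosen with earlier results of these data known. Genes are named by rule: Crebbp, Ep300, Kat2b, Hdac3, Hdac5, Tet3 and Ezh2 always, members whose start gained or lost a peak (up to 8 per comparison), the 3 largest rises and falls in peak number per assay, members without a start peak, and members with an H3K27me3 peak of q up to 0.05 (none). Others named were chosen after their values were seen. Alternatives were a 2 kb window, start regions of 250 bp and 2.5 kb, −log10 q of at least 5, equal list sizes, a reciprocal overlap of 50% and assigning each peak to its nearest gene. The background of genes with an H3K9ac start peak was chosen after seeing the data. Counting was tested on simulated data. Python 3.11.15, numpy 2.4.6, pandas 2.3.3, scipy 1.17.1 and matplotlib 3.10.9 were used.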

Additional observations from a re-analysis of the deposited data

Results flagged for a closer look

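The H3K27ac peak number summed over the 49 genes differed in opposite directions in the 2 injuries. It was 108 higher in SNA than in Sham and lower in DCA than in Lam, a difference of -94. The difference between the injuries was not tested, since each list is 1 pooled list. The controls differed as much, with 110 more peaks in Lam than in Sham. At equal list sizes the values were -16 and -3.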

How the results depend on the processing

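Of the 8 summed differences 3 reversed, all at equal list sizes, and the other 5 kept their direction where they could be computed; the cause of the shifts was not tested. At equal list sizes, which leave fewer peaks in the larger lists, H3K9ac gave 14 members with more and 21 with fewer peaks in SNA (sum -6, 7 starts lost, 36.4% of peaks unshared) and 18 and 14 in DCA (sum 16, 43.8% unshared). Of genes with an H3K9ac start peak, 29.7% then held more and 37.5% fewer in SNA, and 34.9% and 33.8% in DCA. H3K27ac gave 15 and 18 in SNA (sum -16, 3 starts lost, 40.6% unshared) and 18 and 21 in DCA (sum -3, 1 start gained, 34.1% unshared). The shares of genes with an H3K9ac start peak were 39.1% and 31.5% in SNA, and 32.3% and 33.0% in DCA. ATAC gave 18 with fewer in SNA (35.3% of genes with an H3K9ac start peak) and sums of 15 and -15. H3K27me3 gave 87.8% unshared in SNA, and 3 with more (17.4% of those genes) and a sum of -46 in DCA. With −log10 q of at least 5, H3K9ac gave 1 member with fewer, a sum of 36, 15 starts gained and 81.2% unshared in SNA, and 0 with fewer, 32 starts gained, 0 lost and 82.4% unshared in DCA. H3K27ac gave 19 and 16, a sum of 3 and 3 starts lost in SNA, and 4 with more, a sum of -55, 2 starts gained and 11 lost in DCA. ATAC gave 20 and 1, a sum of 46, 2 starts lost and 39.6% unshared in SNA, and 9 with fewer, a sum of 17, 2 starts gained and 29.8% unshared in DCA. No H3K27me3 peak of a member reached that limit, so it gave no value there.

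With a 2 kb window, fewer H3K9ac peaks were at 9 members in SNA and 10 in DCA, and H3K27me3 gave 15 with fewer and a sum of -10 in SNA and 2 with more and a sum of -67 in DCA. With each peak assigned to its nearest gene, fewer H3K27ac peaks were at 12 members in SNA, and H3K27me3 gave a sum of -14 in SNA and 2 with more in DCA. A start region of 250 bp gave 4 H3K9ac starts lost in SNA, 5 gained and 0 lost in DCA, and 2 ATAC starts gained in DCA. A start region of 2.5 kb gave 0 H3K9ac and 0 ATAC starts gained in DCA and 6 H3K27ac starts gained in SNA. With a reciprocal overlap of 50%, the unshared share in SNA and DCA was 71.0% and 82.9% for H3K9ac, 76.2% and 54.8% for H3K27ac, 63.2% and 59.2% for ATAC, and 94.3% and 90.0% for H3K27me3.

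No paired analysis was possible because the deposited lists pool the replicates, and leaving out a replicate was not run for the same reason. Read depth is unknown. Whether depth, thresholds or chromatin set the sizes of the lists cannot be told apart here.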
